A study of Mus musculus with 2 samples.

Results

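The miR-30 family of the mouse is made from 6 hairpin genes, Mir30a, Mir30b, Mir30c-1, Mir30c-2, Mir30d and Mir30e, taken here by name from the 1973 microRNA genes measured in the embryonic limb. All 6 had a row in the tables. The rule uses the names and no level. The samples were limbs of B6NCrl mice at 12.5 days of embryonic development, healthy, with both sexes pooled. There was 1 group with biological replicates numbered 1 and 2, from pools of 88 and 68 embryos, and no treated or mutant group. The limb at this age holds condensing cartilage, muscle precursors, vessels and ectoderm, so a level here is an average over cell types, and fewer cells of a type cannot be told apart from less RNA per cell.

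MicroRNAs repress messenger RNAs that pair with the seed, bases 2 to 8 of the mature strand, so genes with the same seed are expected to share many targets. A hairpin gives a 5p strand from its first arm and a 3p strand from its second. The miR-30 family is found across vertebrates and is made in many tissues. Its 5p strands are known to repress Runx2 and Smad1, both of which drive bone formation, in mouse preosteoblast cells, and to act in kidney development, adipocyte differentiation and vessel branching.

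The genes lie in 3 pairs, each pair on the same strand of its chromosome (coordinates of mm10). Mir30e (chromosome 4, 120772606 to 120772697, minus strand) and Mir30c-1 (chromosome 4, 120769534 to 120769622, minus strand) lie 2983 bases apart in an intron of Nfyc, which encodes a subunit of the CCAAT-binding factor NF-Y. Mir30a (chromosome 1, 23272269 to 23272339, plus strand) overlaps no other annotated gene, and Mir30c-2 (chromosome 1, 23291701 to 23291784, plus strand), 19361 bases away, is exonic in Gm27028, a long non-coding RNA gene. Mir30d (chromosome 15, 68341208 to 68341289, minus strand) overlaps exons of the long non-coding RNA gene Gm20732 and of the transcript Gm37296. Mir30b (chromosome 15, 68337415 to 68337510, minus strand), 3697 bases from Mir30d, overlaps an exon of Gm26621, a non-coding transcript.

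RefSeq's table of microRNA sequences for GRCm38.p6 held 4 of the 6 members, all but Mir30b and Mir30d. Their mature 5p strands are shown first, since they carry the family's shared seed, with the seed in capitals (5′ to 3′). The last line is Mir384, an X-linked gene known from brain that is not a member by name.
miR-30a-5p: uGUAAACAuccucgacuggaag
miR-30e-5p: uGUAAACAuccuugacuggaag
miR-30c-5p: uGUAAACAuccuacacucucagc
miR-384-5p: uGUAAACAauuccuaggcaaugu

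These 4 strands, from 5 genes, were the only ones among 1679 mature strands in that table with the seed GUAAACA, which is 0.238% of them. Counted from 1 at the 5′ end, miR-30a-5p and miR-30e-5p differed at 1 position (C13U, with the base of miR-30a first). From miR-30c-5p, miR-30a-5p differed at 5 positions (C13A, G14C, G18C, G19U and A20C). The first 12 bases were the same in these 3 strands. Against Mir384 the identity ended after base 8, with U9A as the first change from miR-30a-5p.

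The 3p strands fall under other seeds, again in capitals, and are shown because they are what tells the Mir30c copies apart.
miR-30a-3p: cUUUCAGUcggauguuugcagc
miR-30e-3p: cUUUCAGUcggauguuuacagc
miR-30c-1-3p: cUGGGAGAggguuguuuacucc
miR-30c-2-3p: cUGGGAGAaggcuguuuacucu

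Mir30a and Mir30e thus also shared the seed of the 3p strand, and their 3p strands differed at 1 position (G18A). The 3p strands of Mir30c-1 and Mir30c-2 differed at 3 positions (G9A, U12C and C22U). The 5p strand of Mir30c-1 and Mir30c-2 is the same molecule. Their hairpins are shown with the longest stretch they share in capitals.
Mir30c-1: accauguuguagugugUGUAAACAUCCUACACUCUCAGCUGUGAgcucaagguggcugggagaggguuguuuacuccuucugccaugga
Mir30c-2: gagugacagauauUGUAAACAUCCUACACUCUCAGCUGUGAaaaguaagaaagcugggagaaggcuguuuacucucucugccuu

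The shared stretch was 28 bases long and holds the whole 5p strand of 23 bases. The deposited tables set apart reads that mapped to several places, so a read that lies inside this stretch fits both genes equally well and could be assigned to neither. All values for Mir30c-1 and Mir30c-2 therefore count only reads that reach past it or come from the 3p arm, and they are lower limits of what each gene gave. Reads that mapped to several places numbered 2892656 in replicate 1 and 2310423 in replicate 2, and how many of them were miR-30c is not known. No 2 of the other entries, Mir30a, Mir30e and Mir384, shared a stretch of 20 bases with each other or with another hairpin of that table. The longest stretch shared by Mir30a and Mir30e was 18 bases, just under that cut. Mismatch settings were not given, so whether reads of Mir30a and Mir30e were set apart or assigned to the wrong gene is not known. This also limits the ratio of Mir30e to Mir30a given below.

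Replicate 1 held 4525636 counts on microRNA genes and replicate 2 held 3604284. Levels are counts of the gene's own strand, as the columns were read from their values, per 1000000 of these (CPM), with intervals of 95% (Clopper-Pearson) that cover counting error only, since reads copied by PCR are not independent molecules. Both libraries gave reads for microRNAs of limb tissues. Mir196b of the HoxA cluster, Mir140 of cartilage, Mir214 of mesenchyme, Mir206 of skeletal muscle, Mir205 of ectoderm, Mir126a of endothelium and Mir451a of red blood cells were all above 10 CPM in both. Their means ran from 174 CPM for Mir451a to 86831 CPM for Mir196b. Of markers of tissues that the limb should lack, Mir375 of endocrine cells stood at 1511 ± 143 CPM (SD, n = 2), Mir122 of liver at 15.0 ± 2.8, Mir208a of heart at 10.3 ± 1.5 and the neural Mir9-3 at 1.11 ± 0.0035. Mir375 and Mir122 also passed 10 CPM in both libraries, so this level alone does not tell limb tissues from others. The neural Mir9-2 and the 3 Mir124a genes had 0 assigned counts, which does not show that these microRNAs are absent, since reads that fit several copies were set apart.

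The family held 3.39% (interval 3.37 to 3.40) of the counts in replicate 1 and 2.83% (2.81 to 2.85) in replicate 2, a mean of 3.11% ± 0.39 (SD, n = 2). All 6 members reached 10 CPM in each library, as did 286 genes in all. Their levels covered 3 orders of magnitude and fell into an upper set, 1 gene at each locus, and a lower set, its partner.

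Mir30e led the family. It gave 105765 counts in replicate 1 and 66844 in replicate 2, or 23370 and 18546 CPM (20958 ± 3411 CPM, SD, n = 2). This placed it 13th among all genes by the mean. It held 69.0% of the family's counts in replicate 1 (interval 68.8 to 69.3) and 65.5% in replicate 2 (65.2 to 65.8). The gene above it in the order was Mirlet7g at 21638 ± 861 CPM and the gene below was Mir10b at 20574 ± 218 CPM, so its place between them was not resolved. In mouse stromal cells miR-30e is known to favour adipocytes over osteoblasts by repressing the Wnt co-receptor Lrp6.

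Mir30a and Mir30d followed. Mir30a, known in human cells as a repressor of the autophagy gene BECN1, gave 27408 and 19015 counts, which are 6056 CPM in replicate 1 and 5276 in replicate 2 (5666 ± 552 CPM, SD, n = 2). Mir30d gave 19261 and 15603 counts, or 4256 and 4329 CPM (4292 ± 52 CPM, SD, n = 2). Mir30a exceeded Mir30d by 1.42 times in replicate 1 (interval 1.40 to 1.45) and by 1.22 times in replicate 2 (1.19 to 1.24), and their means lay further apart than either SD. Mir30e exceeded Mir30a by 3.86 times (3.81 to 3.91) and by 3.52 times (3.46 to 3.57).

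**Figure D1:**
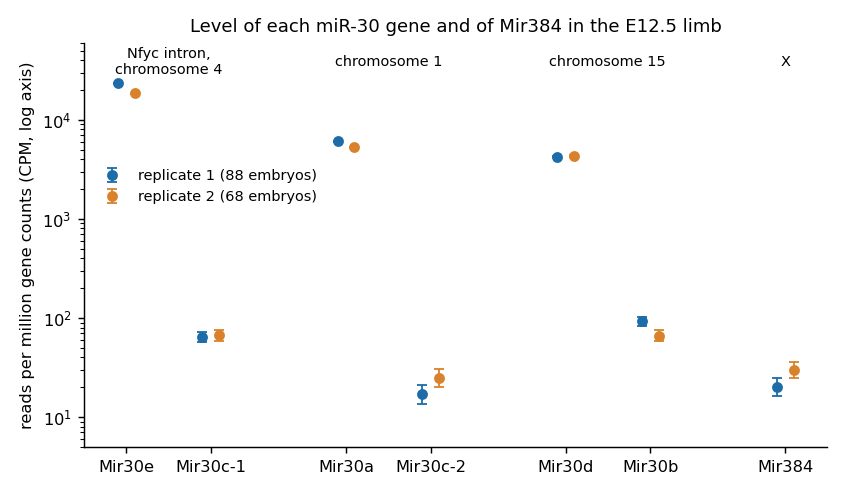
Level of each miR-30 gene, grouped by locus, and of Mir384 in each library, in CPM on a log axis; points are libraries and bars are 95% Clopper-Pearson intervals of counting error, smaller than the points for the high genes. Mir30e, Mir30a and Mir30d stand at 4256 CPM or more in both libraries, while their partners Mir30c-1, Mir30c-2 and Mir30b stay below 100 CPM.

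The lower set was Mir30b, Mir30c-1 and Mir30c-2. Mir30b, which together with Mir30d is known to promote invasion of human melanoma cells, gave 418 and 238 counts, or 92.4 and 66.0 CPM (79.2 ± 18.6 CPM, SD, n = 2). Mir30c-1 gave 294 and 240 counts, or 65.0 and 66.6 CPM (65.8 ± 1.1 CPM, SD, n = 2). The order of these genes was not resolved: Mir30b exceeded Mir30c-1 by 1.42 times in replicate 1 (interval 1.22 to 1.66), but the ratio was 0.992 in replicate 2 (0.825 to 1.19). Mir30c-2 was the lowest member with 77 and 90 counts, or 17.0 and 25.0 CPM (21.0 ± 5.6 CPM, SD, n = 2). By reads that could be assigned, Mir30c-1 exceeded Mir30c-2 by 3.82 times in replicate 1 (2.96 to 4.97) and 2.67 times in replicate 2 (2.08 to 3.44). Their common product miR-30c-5p is known to repress the matrix gene Ctgf in rodent heart. Together these 3 genes held under 1% of the family's counts in each library, at 0.192% and 0.235% for Mir30c-1, 0.0503% and 0.0882% for Mir30c-2, and 0.273% and 0.233% for Mir30b. For the Mir30c genes these shares hold only for assigned reads.

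The Nfyc intron was the main source of assigned miR-30 reads. Both genes there together gave 69.2% of the family's counts in replicate 1 (interval 69.0 to 69.4) and 65.7% in replicate 2 (65.5 to 66.0), a mean of 67.5% ± 2.5 (SD, n = 2). The chromosome 1 locus gave 17.9% and 18.7%, and the chromosome 15 locus 12.8% and 15.5%. The order of the loci was the same in both libraries, and the gaps between their mean shares, 18.3% ± 0.56 for chromosome 1 and 14.2% ± 1.9 for chromosome 15, were larger than either SD. As levels, the loci stood at 21024 ± 3410, 5687 ± 546 and 4372 ± 33 CPM. Reads of miR-30c that fit both the chromosome 4 and the chromosome 1 copy are missing from both loci.

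Within each locus the higher gene exceeded its partner by a large factor. The ratio of Mir30e to Mir30c-1 was 360 in replicate 1 (interval 321 to 405) and 279 in replicate 2 (245 to 317), a geometric mean of 317, or 8.31 ± 0.26 on the log2 scale (SD, n = 2). The ratio of Mir30a to Mir30c-2 was 356 (285 to 451) and 211 (172 to 263), with a geometric mean of 274, or 8.10 ± 0.53 on the log2 scale. Since Mir30c-1 and Mir30c-2 lose shared reads, both ratios are upper limits with regard to those reads. The ratio of Mir30d to Mir30b was 46.1 (41.8 to 50.9) in replicate 1 and 65.6 (57.7 to 74.8) in replicate 2, with a geometric mean of 55.0, or 5.78 ± 0.36 on the log2 scale. Neither gene had a RefSeq entry, so loss of shared reads could not be checked for this ratio. In each of the 3 pairs the intervals of the libraries did not overlap, so the ratios differed between the libraries by more than these intervals cover. Each pool gave 1 library, so differences between pools and between library preparations cannot be told apart. Division by the length of the 5p strand, 22 bases for Mir30a and Mir30e and 23 for the Mir30c genes, changed neither of the first 2 ratios by more than its SD.

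Unequal levels of neighbours were common among the microRNA genes as a whole. Next to these ratios stand those of 106 other pairs of neighbouring genes on the same strand, at most 50000 bases apart and each at 10 CPM or more in the mean. The median ratio of those pairs, higher over lower gene with 0.5 counts added, was 6.27, and 28 of them (26.4%) reached 20 times. In 2 of them the ratio was larger than that of Mir30e to Mir30c-1 or of Mir30a to Mir30c-2. In 13 (12.3%) it was larger than that of Mir30d to Mir30b. Genes under 10 CPM were left out before the pairs were formed, so a pair can span such a gene. Pairs with a gene under 10 CPM are missing, and their ratios can be larger. These numbers hold only for neighbours among the genes that passed the cut. Where both hairpins were in the RefSeq table, the median was 15.4 for 28 pairs in which a gene shared a stretch of 20 bases with another hairpin and 4.89 for 62 pairs in which none did. With the gap cut to 10000 bases the medians were 12.3 for 27 pairs with such a gene and 6.19 for 58 without. With both genes also at 100 CPM or more the order turned. The medians were then 2.72 for 12 pairs with such a gene and 4.07 for 50 without. The higher cut leaves out genes under 100 CPM, including any that fell there through lost reads. It also joins the genes that remain into new pairs, so the pairs under the cuts are partly different ones. None of these settings can show what lost reads add, since the reads that were set apart are not known by gene. The first 2 miR-30 pairs hold such a gene, and the part of lost shared reads in their ratios was not tested. These are descriptions with no test, since neighbouring pairs share genes and libraries.

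**Figure D2:**
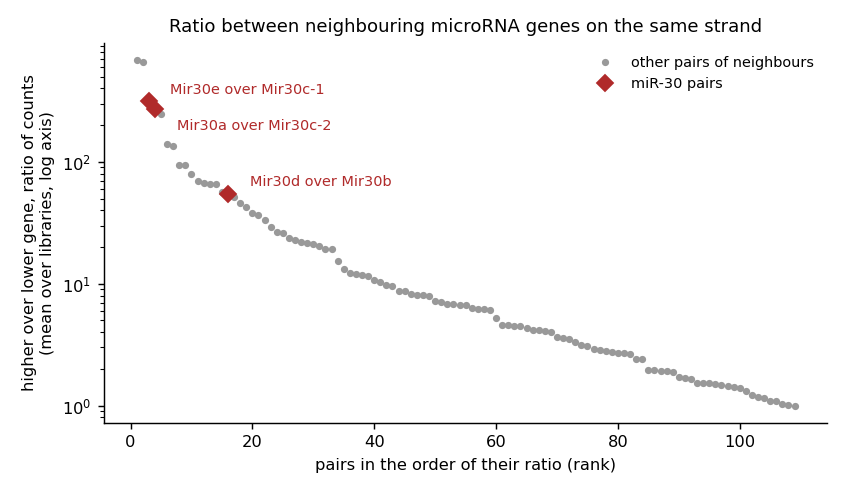
Ratio of the higher to the lower gene (mean over both libraries on the log scale, 0.5 counts added, log axis) for pairs of neighbouring microRNA genes on the same strand at most 50000 bases apart, in the order of that ratio; red diamonds are the 3 miR-30 pairs and grey points the 106 other pairs. Mir30e over Mir30c-1 and Mir30a over Mir30c-2 stand near the top of the order, with 2 other pairs above them, and 13 others lie above Mir30d over Mir30b. Genes under 10 CPM in the mean were left out before the pairs were formed, so a pair can span such a gene.

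Mir384, the further gene of the tables found to carry the miR-30 seed, was about as low as Mir30c-2. It gave 92 counts in replicate 1 and 108 in replicate 2, or 20.3 and 30.0 CPM (25.1 ± 6.8 CPM, SD, n = 2). The ratio of Mir30c-2 to Mir384 was 0.837 in replicate 1 (interval 0.610 to 1.15) and 0.833 in replicate 2 (0.623 to 1.11), so at this depth no difference between them was detectable, and Mir30c-2 is a lower limit.

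On the strand opposite to Mir30e the reference places Mir30f, which has no row in the tables and whose mature strand (chromosome 4, 120772621 to 120772642, plus strand) lies opposite 19 bases of miR-30e-3p. It is shown because its name puts it in the family while its bases 2 to 8, in capitals, are shifted by a single base against the shared seed.
miR-30f: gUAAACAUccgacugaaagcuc

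The opposite strand of Mir30e held 1 count in replicate 1 and 0 in replicate 2, both below 3 counts, taken here as the floor of detection. Reads from Mir30f were therefore not detected above this floor, and whether the 1 count came from it is not known. None of the other 5 members had an opposite-strand count in either library.

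Members differed between the libraries, though by no more than 1.47 times. Ratios are replicate 2 over replicate 1 on the log2 scale with 0.5 counts added, and SE covers counting error. Mir30e was lower in replicate 2 (-0.33, SE 0.0071), as were Mir30a (-0.20, SE 0.014) and Mir30b (-0.48, SE 0.12). Mir30c-2 was higher (0.55, SE 0.22). The values of Mir30c-1 (0.04, SE 0.13) and Mir30d (0.02, SE 0.016) lay near 0. The two-sided exact binomial test, which compares these libraries with counting error alone, called 4 of 6 members at a Benjamini-Hochberg adjusted p under 0.05, against 41.7% of the 436 genes with 10 counts or more. By direction, 20.4% of the 436 genes were called higher in replicate 2, where 1 called member lay, and 21.3% were called higher in replicate 1, where the 3 other called members lay. The exact test gave adjusted p-values of 1.11e-47 for Mir30a, 0.00011 for Mir30b, 0.0382 for Mir30c-2, 0.864 for Mir30c-1 and 0.22 for Mir30d, and for Mir30e a value too small for the software to write. Calls follow depth: 86.0% of genes at 1000 CPM or more were called and 17.0% of those under 100 CPM.

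With the spread between the libraries in the model, no member was called. edgeR's negative binomial exact test, with a dispersion from the same libraries, called 0 of 436 genes (0.00%) after adjustment. At an unadjusted p under 0.05 it held 25 genes (5.73%), none of them a member. Of 298 genes at 10 CPM or more, 33 (11.1%) lay more than 1.5 times apart between the libraries, and 0 of the 6 members did. The median log2 ratio was -0.09 over the members and -0.01 over all genes tested, and the median size of the ratio 0.27 and 0.30.

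**Figure D3:**
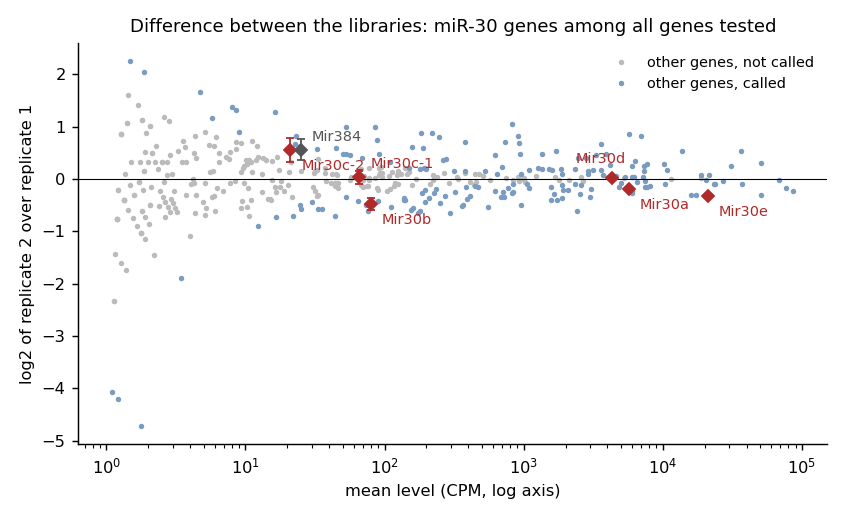
Log2 ratio of replicate 2 over replicate 1 against mean level (CPM, log axis) for the 436 genes tested; red diamonds are miR-30 genes and the grey diamond is Mir384, with bars of 1 counting SE, and blue points are other genes called by the exact binomial test. The members lie between -0.48 and 0.55. Mir30e, at -0.33, lies near the lower edge of the genes of like level, and the other members lie inside the cloud.

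By assigned reads, partners of a locus did not move together between the libraries. For Mir30c-1 and Mir30c-2 the shift of their whole output is not known, since reads inside the shared stretch were set apart. In the Nfyc intron Mir30e stood at -0.33 and Mir30c-1 at 0.04, on chromosome 1 Mir30a at -0.20 and Mir30c-2 at 0.55, and on chromosome 15 Mir30d at 0.02 and Mir30b at -0.48. The log2 ratio within the pair changed by 0.37, 0.75 and 0.51 between the libraries. Among the 106 other pairs the median change was 0.29, and it was larger in 40, 10 and 28 of them than in these 3 pairs, in that order.

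Counts of other conserved families, from listed genes, were spread as follows. The miR-26 and miR-101 genes held 2.55% ± 0.12 of the counts, of which Mir26b made up 91.9% in each library, while Mir26a-1 and Mir26a-2 stood at 11.0 ± 2.2 and 38.0 ± 0.70 CPM. The let-7 genes held 4.71% ± 0.23 with 10 of 12 listed genes in the tables, and their highest gene, Mirlet7g, made up 46.3% and 45.7%. The miR-29 genes, known repressors of collagen genes, held 0.00823% ± 0.00080, with Mir29c highest at 45.4 ± 1.7 CPM. The miR-30 share lay between those of the let-7 and the miR-26 and miR-101 genes in both libraries. These values stand side by side with no test, and they too leave out reads that fit several places.

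**Figure D4:**
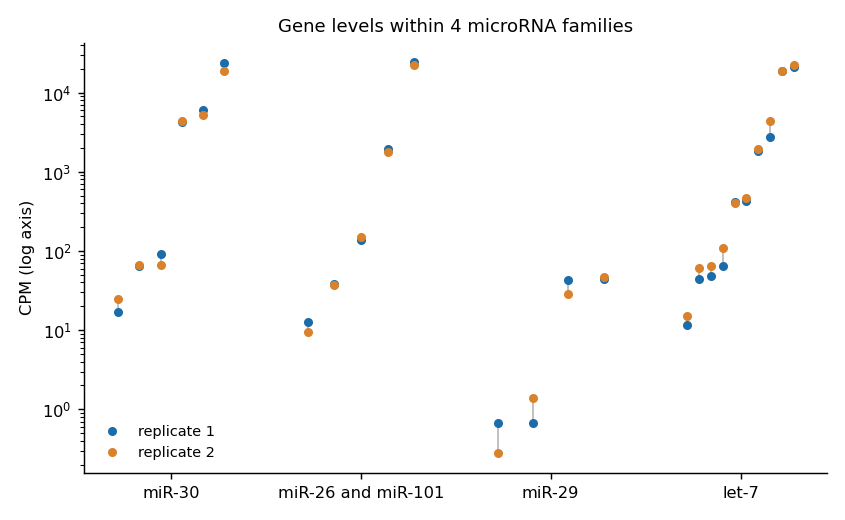
CPM on a log axis for the genes of 4 microRNA families, each gene joined across its 2 libraries (blue replicate 1, orange replicate 2) and ordered by mean within the family. The miR-30 genes run from 21.0 CPM for Mir30c-2 to 20958 CPM for Mir30e in the mean, the let-7 genes from 13.4 to 21638 CPM and the miR-26 and miR-101 genes from 11.0 to 23448 CPM, while the highest miR-29 gene lies at 45.4 CPM.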

How the data were processed

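Small RNA of 2 limb pools was sequenced. The deposited files hold whole-number counts per microRNA gene, made from alignments to mm10 with GENCODE M4, per the file headers in the README of each library. The aligner, counter, trimming and mismatch settings were not given in the sources used here. The tables have 3 count columns and no header. They were read as both strands, the own strand and the opposite strand from the values, since the first equalled the sum of the others in all genes and the second held nearly all counts. Rows that name no gene (unmapped, several places, outside genes) held 57.5% of replicate 1 and 63.0% of replicate 2 and were left out. Identifiers were matched without version to GENCODE M21, also on mm10, and 1894 of 1973 matched. The 79 others held 1 and 2 counts. Counts cover whole hairpins, so arms were not separated.

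Own-strand counts were scaled to CPM. Genes whose summed counts reached 10 were compared between the libraries by a two-sided exact binomial test (scipy 1.17.1), with edgeR 4.0.16 (trimmed-mean, TMM, scaling) and DESeq2 1.42.0 size factors as alternatives (R 4.3.3). Named genes are the members, genes with their seed, the gene above and below each member (only those of Mir30e are given), and the comparison families. The members and lists were chosen with earlier results of these data known. The labels call the libraries biological replicates. Their counts differed by more than counting error (chi-square of 64066 on 435 degrees of freedom). With 1 group, no condition was compared, and with 2 libraries no likeness of pattern across samples was measured.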

Additional observations from a re-analysis of the deposited data

How the results depend on the processing

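The 3 pair ratios kept their direction and moved by no more than 1 SD with counts of both strands, 0.5 counts added, or scaling per base of the 5p strand (the last for 2 pairs, since it needs both sequences). Without replicate 1 or 2 the log2 ratios ranged from 8.12 to 8.49 for Mir30e over Mir30c-1, from 7.72 to 8.48 for Mir30a over Mir30c-2 and from 5.53 to 6.03 for Mir30d over Mir30b. The family share ranged from 2.83% to 3.39% and was 6.09% with the 10 highest genes left out of the total. The exact binomial test called 182 genes, within 1.5 times of this under TMM, DESeq2 size factors and no filter, and edgeR's negative binomial test called 0, with 25 at an unadjusted p under 0.05. That test takes its dispersion from the libraries it compares, which absorbs differences into it. With all reads of a library as the scale every member's level was lower, at 8399 for Mir30e, 2263 for Mir30a, 1706 for Mir30d, 31.9 for Mir30b, 26.1 for Mir30c-1 and 8.24 for Mir30c-2 per 1000000 reads. The exact binomial call of Mir30c-2 was then lost (log2 0.35), Mir30d was called under TMM (log2 0.04), and the signs of Mir30c-1 and Mir30d turned with all reads (-0.16 and -0.18). Of neighbouring pairs at most 10000 bases apart 27.6% reached 20 times, and 14.3% did with both genes at 100 CPM or more, a level that leaves no miR-30 pair. Pairs were formed anew among the genes at that level. No paired analysis was possible because there is 1 group. The number of genes called has no value without a replicate, since it needs both. Depth limits Mir30c-2 and Mir384, at about 100 counts a library.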
